A study of Mus musculus with 33 samples.

Results

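HSF1 binding in heat-shocked mouse embryonic fibroblasts (MEFs) was followed between 12 and 60 min of heat shock, region by region: which sites of the 12 min lists were still found at 60 min, which were lost, and which were first seen at 60 min. The regions came from 4 of the 33 samples of the series, of which 15 had a peak list. These were chromatin immunoprecipitations followed by sequencing (ChIP-seq) of wild type MEFs of the strain background 129Sv.BALB/c, heat-shocked for 60 min or for 12 min, and precipitated at each time with an antibody from Cell Signaling (#4356, called CS) or with one given by the Morimoto laboratory (MM). The series also holds lists from cells before heat shock, from HSF1 knockout cells and for SRF, and nascent RNA libraries. The labels do not give the target of CS and MM, but the file headers name an Hsf1 ChIP-seq. The headers name a merge of 2 replicates for each library, so there was 1 peak list per time and antibody, and no replicate error or test between the times could be had.

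CS and MM peaks of 1 time that overlapped by at least 1 bp were joined into a shared region. There were 3455 shared regions at 60 min and 1412 at 12 min. A region was called kept where it overlapped a shared region of the other time by at least 1 bp, new where a 60 min region had no 12 min region under it, and lost where a 12 min region had no 60 min region over it. New regions numbered 2224, and the other 1231 regions of 60 min were kept. Lost regions numbered 171, and the other 1241 regions of 12 min were kept. Kept regions joined into 1230 loci, of which 1220 held 1 region at each time.

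HSF1 is the main transcription factor of the heat shock response. It is held inactive in unstressed cells, forms trimers on heat stress, and binds heat shock elements, which are alternating repeats of GAA and its complement TTC. Its best known targets encode chaperones, the proteins that refold or hold other proteins damaged by heat. In a trimer each subunit contacts 1 repeat, so a run of 3 repeats is the smallest complete element.

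The sequences below show the element at promoters of each class. They are 120 bases of the 250 before an annotated transcript start, read from RefSeq's promoter table (GRCm38.p6, the primary assembly of mm10) on the strand of the gene, and the capitals mark each run of 3 alternating repeats. Rps18 and Creb3l3 lay at new regions, Dnajb6 and Slc35c1 at lost regions, and Hspd1 and Nr1h2 at kept regions.
Rps18, chr17:33955796-33955915, minus strand: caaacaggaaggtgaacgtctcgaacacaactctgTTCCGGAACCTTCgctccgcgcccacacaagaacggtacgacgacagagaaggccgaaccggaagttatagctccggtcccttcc
Creb3l3, chr10:81098873-81098992, minus strand: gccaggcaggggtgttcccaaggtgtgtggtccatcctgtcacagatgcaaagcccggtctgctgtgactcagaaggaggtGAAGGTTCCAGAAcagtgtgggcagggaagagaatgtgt
Dnajb6, chr5:29735778-29735897, plus strand: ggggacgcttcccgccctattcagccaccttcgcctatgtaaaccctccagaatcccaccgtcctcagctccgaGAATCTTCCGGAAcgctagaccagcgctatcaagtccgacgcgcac
Slc35c1, chr2:92459913-92460032, minus strand: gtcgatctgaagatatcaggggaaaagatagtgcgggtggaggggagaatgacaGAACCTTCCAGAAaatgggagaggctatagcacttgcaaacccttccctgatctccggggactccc
Hspd1, chr1:55088011-55088130, minus strand: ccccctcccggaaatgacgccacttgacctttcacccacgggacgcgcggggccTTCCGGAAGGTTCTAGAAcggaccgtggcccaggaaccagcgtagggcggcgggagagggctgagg
Nr1h2, chr7:44554038-44554157, minus strand: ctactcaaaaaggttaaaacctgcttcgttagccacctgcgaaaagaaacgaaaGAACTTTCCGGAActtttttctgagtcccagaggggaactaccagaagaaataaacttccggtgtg

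The summit of a shared region, the midpoint of its CS and MM summits, lay close to these runs in all 3 classes. It was 9 bp from the middle of the run at Rps18, 8 bp at Creb3l3, 14 bp at Dnajb6, 32 bp at Slc35c1, and, at 60 min, 25 bp at Hspd1 and 0 bp at Nr1h2. Hspd1, which encodes the mitochondrial chaperonin, carried 2 overlapping runs and the other promoters shown carried 1. The classes shown are those of the shared regions, and not every lost or new one was without any peak at the other time: Slc35c1 had a CS peak of 91 tags at 60 min, Dnajb6 an MM peak of 61 tags at 60 min, and Rps18 an MM peak of 77 tags at 12 min.

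Over all promoter windows of 300 bases (250 before and 50 after the start) the run of 3 repeats, searched on both strands as GAANNTTCNNGAA and TTCNNGAANNTTC, was present in 0.523% of 21045 windows of protein-coding genes. Windows that held the summit of a new region carried it in 12 of 71 cases (16.9%, 95% exact Clopper-Pearson interval 9.05% to 27.7%). Windows with a lost summit carried it in 3 of 12 (25%, 5.49% to 57.2%), and windows with the 60 min summit of a kept region in 19 of 87 (21.8%, 13.7% to 32.0%). These 3 intervals overlap. The shorter run of 2 repeats (GAANNTTC or TTCNNGAA), which is part of the longer one, was in 13.8% of all windows, in 47.9% (35.9% to 60.1%) of those with a new summit, in 75% (42.8% to 94.5%) of those with a lost one and in 69.0% (58.1% to 78.5%) of those with a kept one. Where the longer run was present, the summit lay within 50 bp of it in 10 of 12 new, 3 of 3 lost and 19 of 19 kept windows. The exceptions were Mga at 172 bp and Sync at 76 bp. Neighbouring genes can share a window's DNA, as Vps52 and Rps18 do, so these windows are not independent. Intervals here and below cover counting error only.

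Most sites of the 12 min lists were still found at 60 min, and the 60 min lists, which were longer, held many more sites. At 60 min, 2224 of 3455 shared regions were new (64.4%, 62.7% to 66.0%). Of the 1412 regions of 12 min, 171 (12.1%, 10.5% to 13.9%) were lost and 1241 (87.9%) were kept. These shares depend on the length of the lists: with the 60 min lists cut to the length of the 12 min lists, keeping the peaks with the most tags, 542 of 1475 regions at 60 min were new (36.7%, 34.3% to 39.3%) and 66.8% of the 12 min regions were kept. The libraries differed in depth between the times, and the part of depth in the length of the lists was not tested. The CS library kept 19.6 M tags (M for mega) at 60 min against 26.3 M at 12 min, and the MM library 14.0 M at 60 min against 17.7 M at 12 min, after removal of duplicates. The IgG libraries that served as control held 9.23 M tags at 60 min and 12.3 M at 12 min. More cells with HSF1 at a site and more HSF1 on each copy of it cannot be told apart in such data.

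New and lost regions were most frequent among regions with few tags. Among the decile of the 60 min regions with the fewest CS tags (22 to 39), 338 of 346 were new (97.7%, 95.5% to 99.0%), and among the decile with the most (267 to 1818) 31 of 346 were (8.96%, 6.17% to 12.5%). Among the decile of the 12 min regions with the fewest CS tags (22 to 40), 43 of 142 were lost (30.3%, 22.9% to 38.5%). None of the 142 regions with the most (217 to 1452 tags) was lost, which allows a share of up to 2.56%. Ranking by MM tags gave the same order at the ends, with 93.6% and 11% new in the lowest and the highest decile, and 34.5% and 0% lost. The peaks also differed in deposited tag count as classes: new regions had a median of 65 CS and 32 MM tags, kept regions at 60 min 168 and 85, lost regions at 12 min 52 and 30, and kept regions at 12 min 85 and 49. Tags are the authors' own values for a peak, and are not scaled between libraries. Where tags of both times are given for a locus, they stand side by side as a description, and the comparison is that of ranks.

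**Figure D1:**
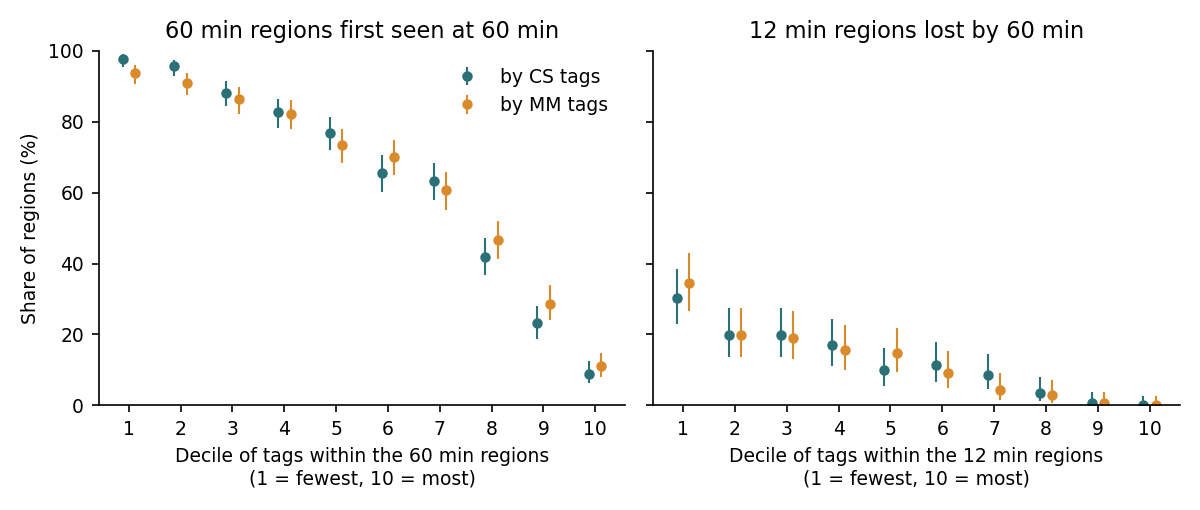
Share of 60 min shared regions that were new (left) and of 12 min shared regions that were lost (right), in %, by decile of CS or MM tags within the regions of that time, with bars for 95% exact intervals. The new share lies at 97.7% in the lowest CS decile and 8.96% in the highest, and the lost share at 30.3% and 0%.

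A region without a shared region at the other time could still hold a peak of 1 antibody there. Of the 171 lost regions, 63 overlapped a CS peak alone at 60 min (36.8%), 18 an MM peak alone (10.5%), and 90 (52.6%, 44.9% to 60.3%) had no peak of either antibody. Of the 2224 new regions, 158 overlapped a CS peak alone at 12 min (7.10%), 173 an MM peak alone (7.78%), 1 had both without their touching each other, and 1892 (85.1%, 83.5% to 86.5%) had none. New regions thus had no earlier peak more often than lost regions had no later one, and the intervals of these shares do not overlap, the 60 min lists being the longer ones. None of the 2224 new regions (up to 0.166%) and none of the 171 lost regions (up to 2.13%) overlapped a shared region found before heat shock, whereas 117 of the 1231 kept regions at 60 min did (9.50%, 7.92% to 11.3%). Tag counts were not matched here: kept loci with such a region had a median of 282 CS tags at 12 min, and lost regions 52.

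New regions, which by definition overlapped no 12 min region, lay at varied distances from one. Of the 2224, 20 (0.899%) lay within 1 kb of a 12 min region and 110 (4.95%) within 10 kb, and the median distance was 322 kb (quartiles 98.5 and 856 kb). In 187 cases (8.41%) the new region lay at or inside a protein-coding gene that already held a region at 12 min. The shares for sites placed at random were not computed, so these values do not say whether new regions lay near or far. At 60 min Col5a1, a fibrillar collagen gene, held 2 new regions of this kind, with 289 and 92 tags (CS and MM) at its end and 182 and 122 tags inside the gene, 26226 and 23504 bp from the nearest 12 min region. Igfbp7, which encodes a secreted protein that binds insulin-like growth factors, held one with 287 CS and 164 MM tags, 4000 bp from its 12 min neighbour.

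New regions lay at gene ends less often than kept ones. A summit within 1 kb of either annotated end of a gene was found for 351 new regions (15.8%, 14.3% to 17.4%) and 323 kept regions at 60 min (26.2%, 23.8% to 28.8%). Inside genes but away from the ends lay 51.6% of the new and 43.1% of the kept regions, and outside genes 32.6% and 30.7%. Much of the contrast was in the regions with the most tags. In the quartile with the most CS tags 20.9% of new (15.2% to 27.6%) and 32.0% of kept regions (28.5% to 35.7%) were at gene ends, in the next quartile 21.4% (18% to 25.2%) and 19.7% (15.6% to 24.3%), in the third 15.9% and 17.5%, and in the lowest 11% (8.96% to 13.4%) and 18.4% (7.74% to 34.3%). Lost regions were at gene ends in 26.3% of cases (19.9% to 33.6%) and kept regions of 12 min in 26.3% (23.9% to 28.9%). At like tag counts the intervals of lost and kept regions were apart in the second-lowest quartile only. In the second-lowest quartile of CS tags at 12 min 38% of 50 lost regions (24.7% to 52.8%) and 16.5% of 303 kept regions (12.5% to 21.2%) were at gene ends, in the lowest 17.2% and 13.5%, and in the next 29% and 29.5%. The quartile with the most tags held 3 lost regions. Peaks called in HSF1 knockout cells, with either antibody at any time, overlapped 6.25% of new and 13.6% of kept regions at 60 min, and 11.7% of both lost and kept regions at 12 min. The knockout lists were called without a control library, and whether these overlaps are background of the antibodies was not tested.

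A protein-coding gene was called bound where the summit of a shared region lay within 1 kb of one of its ends. Of 21631 protein-coding genes 559 (2.58%) were bound at 60 min and 330 (1.53%) at 12 min. At 60 min only 274 genes were bound (1.27%), at both times 285 (1.32%), and 45 (0.208%) at 12 min only. Among the 274 of 60 min only, 273 had a new region, and 69 of these 273 had a peak of 1 antibody under it at 12 min. The exception, Mns1, had a kept region whose summit lay over 1 kb away at 12 min.

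Among the 10 best-ranked new regions at genes was that of Mt1, which encodes a metallothionein, a small protein that binds zinc and copper. It had 315 CS and 215 MM tags at 60 min (chr8:94178472-94180545) and no peak at 12 min. Mtf1 encodes the metal-responsive factor known for activating metallothionein genes. It shared a region with its neighbour Inpp5b, an inositol phosphatase gene, that had 204 CS and 154 MM tags at 60 min and none at 12 min, and that overlapped a knockout peak. Of the 19 genes listed for oxidative and metal stress, a list without Mtf1, Mt1 was the 1 bound at either time. Among all protein-coding genes 2.58% were bound at 60 min and 1.53% at 12 min.

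Other new regions at genes with no peak of either antibody at 12 min were at Prtn3, a neutrophil serine protease gene (296 CS and 197 MM tags at 60 min), and Eif2s2, the gene of a subunit of the translation initiation factor eIF2 (292 and 167). Sapcd2 (253 and 202), Dscaml1, a cell adhesion gene (271 and 198), and Slc1a7, a glutamate transporter gene (253 and 179), were also without a peak at 12 min. The best-ranked of all were not free of early signal. Gm11563 had 584 CS and 202 MM tags at 60 min and already a CS peak of 90 tags at 12 min. Atad2, which encodes a bromodomain ATPase of chromatin, had 332 and 216 tags at 60 min and a CS peak of 173 tags at 12 min. The region shared by Gm3435 and Gm3448 had 355 and 238 tags at 60 min, an MM peak of 139 tags at 12 min and a knockout peak under it.

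Away from the ends of protein-coding genes, the best-ranked new regions had more CS tags than those named at genes, apart from Gm11563, and no peak at 12 min. A region inside Prickle1, a planar cell polarity gene, had 399 CS and 342 MM tags (chr15:93518682-93520258) and overlapped a knockout peak. Regions at chr2:152101133-152102788 with 434 and 284 tags, inside Adgrg6, an adhesion receptor gene, with 403 and 298, at chr8:70480115-70482023 with 422 and 222, and inside Mpped2 with 422 and 212 overlapped none.

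Genes bound at 12 min only were few. Of the 45, 42 had a lost region. At 60 min 11 of these 42 still had a CS peak, 9 an MM peak and 22 neither. Ier5l, a relative of the immediate early gene Ier5, had 122 CS and 99 MM tags at 12 min (chr2:30473477-30474920) and no peak at 60 min, and was the best-ranked lost gene. Trappc5, a subunit of a complex that tethers transport vesicles, had 84 and 58 tags, and Rab31, a small GTPase of membrane traffic, 86 and 47, with no peak at 60 min either. The rest of the 10 best-ranked lost regions at genes kept a peak of 1 antibody.

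Among the best-ranked lost regions a later peak could be of either antibody. Over all 171 lost regions, 63 had a CS peak alone at 60 min and 18 an MM peak alone. Dnajb6, a J-domain cochaperone gene, had 117 CS and 68 MM tags at 12 min and an MM peak of 61 tags at 60 min. MM peaks were also left at Nme2, a nucleoside diphosphate kinase gene (75 tags at 60 min), Rragc, a Rag GTPase gene of nutrient signalling (59), and Cybc1 (52). CS peaks were left at Tmem95 (124 tags at 60 min), Lyrm7, a gene of mitochondrial complex III assembly (61), and Rnf34, a ubiquitin ligase gene (44). Others lay away from the ends of protein-coding genes. A lost region at chr2:30712931-30714309, near an end of another kind of gene, had a CS peak of 193 tags at 60 min, against 115 CS and 52 MM tags at 12 min. One inside Plec, the plectin gene, had an MM peak of 100 tags at 60 min, against 169 CS and 86 MM tags at 12 min. The lost regions of Dnajb6, Nme2, Rragc, Tmem95 and Plec overlapped a knockout peak.

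The other 3 genes bound at 12 min only lay at kept loci. Stat6, a transcription factor gene of interleukin signalling, was one of them, with peaks of 208 CS and 156 MM tags at 60 min against 106 and 25 at 12 min, and Iqcn was another, with 244 and 81 against 69 and 52. In these cases the 60 min summit lay over 1 kb from the gene end.

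Kept peaks were wider at 60 min. The CS peak was wider in 1162 of 1230 loci (94.5%, 93.0% to 95.7%), with a median width of 1221.5 bp at 60 min and 813.5 bp at 12 min and a median difference of 374 bp (quartiles 208.25 and 602 bp). The MM peak was wider in 924 loci (75.1%, 72.6% to 77.5%), with medians of 771.5 and 647 bp and a median difference of 121 bp. Across classes, shared regions had a median width of 905 bp when new and 1245 bp when kept at 60 min, and of 783 bp when lost and 829 bp when kept at 12 min. The fragment length used to call the peaks was larger at 60 min too, at 161 against 128 bp for CS and 114 against 107 bp for MM, and its part in the widths was not tested.

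**Figure D2:**
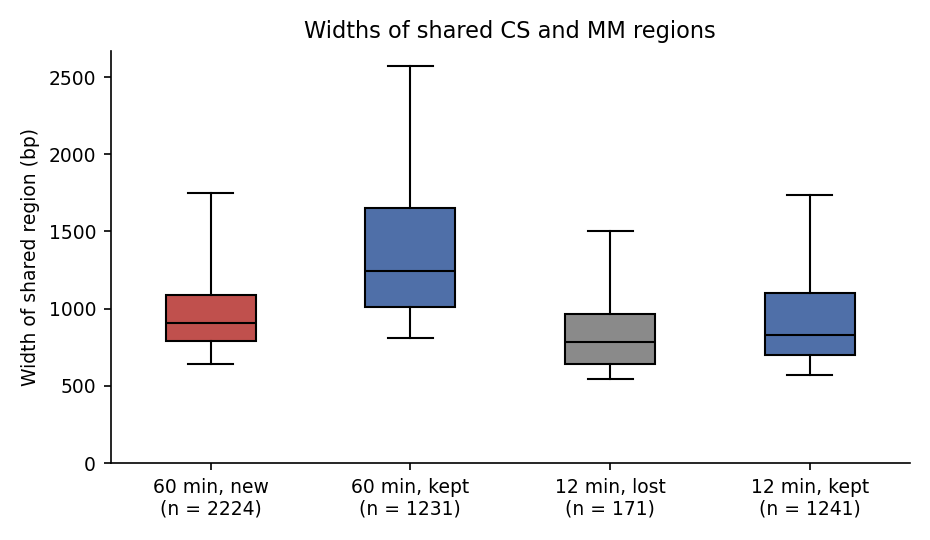
Width of shared regions in bp by time and class; boxes span the quartiles around the median and whiskers run from the 5th to the 95th percentile of regions. The median is 905 bp for new and 1245 bp for kept regions at 60 min, and 783 bp for lost and 829 bp for kept regions at 12 min.

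The position of the kept peaks hardly moved. The median distance between the 60 and 12 min summits was 16.5 bp for CS and 17 bp for MM. CS summits lay within 50 bp of each other in 1105 loci (89.8%) and MM summits in 1051 (85.4%). The largest shifts were 1472 bp for CS and 2552 bp for MM.

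Kept loci were ranked by tags among themselves, so that both times have a list of 1230. Spearman's correlation between the ranks of 60 and 12 min was 0.709 for CS and 0.71 for MM over the 1230 loci, while CS and MM tags of 1 time correlated at 0.921 (60 min) and 0.915 (12 min). These are descriptions across loci, which share libraries, and the antibodies of a time share the IgG control and possibly the chromatin. The median locus moved 160 places with CS and 156.5 with MM. Both antibodies moved a locus the same way in 936 cases (76.1%, 73.6% to 78.5%): 427 rose with both (34.7%), 509 fell with both (41.4%) and 294 were mixed. The first 100 loci of both times had 62 in common by CS and 68 by MM tags.

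**Figure D3:**
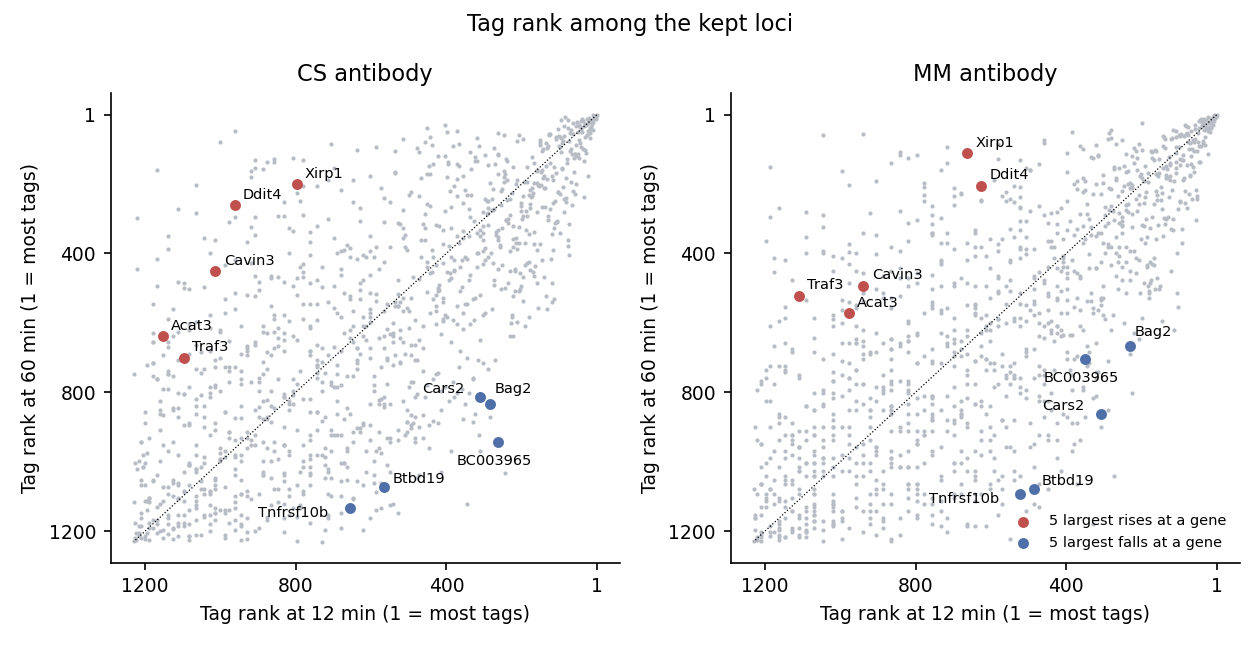
Tag rank of each of the 1230 kept loci at 60 min (vertical) against 12 min (horizontal), rank 1 having the most tags, for CS (left) and MM (right); the dotted line marks equal rank. The 5 largest rises at a gene (red) lie above the line and the 5 largest falls (blue) below it, and the grey points gather on the line only at the top ranks.

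The largest rises at genes were at loci weak at 12 min. Xirp1, an actin-binding protein gene of striated muscle, had 336 CS and 255 MM tags at 60 min against 66 and 46 at 12 min, a rise of 596.5 and 552 places. Its summit lay within 1 kb of a gene end at 12 min, and inside the gene, over 1 kb from that end, at 60 min. The 60 min region (chr9:120013868-120015438) covered that of 12 min (chr9:120014299-120015111). A separate new region with 36 CS and 27 MM tags lay at the other end of the gene at 60 min (chr9:120023851-120024587). Ddit4, which encodes a stress-induced inhibitor of mTORC1, had 297 and 192 tags at 60 min against 52 and 48 at 12 min. Cavin3, a caveola coat gene, had 217 and 106 against 48 and 32. Traf3, an adaptor of tumour necrosis factor receptor and innate immune signalling, had 149 and 102 at 60 min against 42 and 24 at 12 min, and Acat3, an acetyl-CoA acetyltransferase gene, 162 and 92 against 38 and 30.

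The largest falls at genes were at loci ranked in the upper part of the list by at least 1 antibody at 12 min. Bag2, an Hsp70 cochaperone gene, had 121 CS and 77 MM tags at 60 min against 150 and 98 at 12 min, and fell by 549.5 and 437 places. Cars2, the mitochondrial cysteinyl-tRNA synthetase gene, had 125 and 53 at 60 min against 145 and 83 at 12 min. Tnfrsf10b, which encodes the TRAIL death receptor, had 65 and 33 at 60 min against 80 and 57 at 12 min. The region of Btbd19 and Tctex1d4 had 78 and 34 at 60 min against 91 and 60 at 12 min, and BC003965 had 99 and 72 against 159 and 76. The 60 min libraries held fewer tags in all, and the tag counts of 2 libraries are not scaled to each other.

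The most extreme moves were larger away from the ends of protein-coding genes, where most kept loci lay. At 60 min 244 of the 1231 kept regions were at such ends. The locus at chr6:99903412-99905164, outside any gene, had 478 CS and 349 MM tags at 60 min against 49 and 27 at 12 min, and rose by 921.5 and 987 places. A locus inside Septin9, a cytoskeletal GTPase gene, had 555 and 356 tags at 60 min against 52 and 32 at 12 min, and one inside Sh3kbp1, an adaptor gene of receptor endocytosis, 335 and 261 against 44 and 37. The largest falls were inside Arhgap28 (68 and 24 tags at 60 min against 134 and 80 at 12 min), and Lpp, a focal adhesion gene (102 and 37 against 144 and 90). Over all kept loci, those inside genes rose with both antibodies in 40.6% of cases (36.4% to 45.0%), those at gene ends in 28.5% (23.6% to 33.7%) and those outside genes in 31.7% (27.1% to 36.7%). The median move with CS and MM was 8.5 and 4.0 places inside genes, -53.0 and -9.0 at gene ends, and -13.5 and -34.0 outside.

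How far a locus can rise or fall depends on where it starts. Of the loci in the top quartile of mean CS and MM rank at 12 min, 57.4% fell and 21.0% rose with both antibodies, and of those in the lowest quartile 17.2% fell and 54.3% rose. Within the top quartile the intervals by position overlapped: 25.8% (18.5% to 34.1%) of the loci at gene ends rose, 20% (12.5% to 29.5%) of those inside and 14.1% (7.26% to 23.8%) of those outside genes. In the second quartile 14.8% (8.11% to 23.9%) of the loci at gene ends, 33.3% (25.5% to 42.0%) of those inside genes and 18.9% (10.7% to 29.7%) of those outside rose. In the third and the lowest quartile 41.7% and 59.5% of the loci inside genes rose. At gene ends 37.5% and 53.8% did, and outside genes 36.0% and 47.8%, with overlapping intervals. Loci with a shared region before heat shock were mostly in the top quartile (102 of 117). There 10.8% of them (5.51% to 18.5%) rose, against 26.1% (20.2% to 32.7%) of the other 203, while similar shares fell, 59.8% and 56.2%. Their median move was -33.25 places with CS and -31.75 with MM, against -54.5 and -48.0 for the others. Starting rank within the quartile was not matched, and a locus near rank 1 has little room to rise. Over all quartiles, loci with such a region had a median of 282 CS tags at 12 min, and the others 78.

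The genes of the chaperone lists that were bound were, with 2 exceptions, bound at both times. Of 110 genes in 8 lists of chaperones and cochaperones, 1 was bound at 60 min only, 45 at both times and 1 at 12 min only. Among all protein-coding genes these shares were 1.27%, 1.32% and 0.208% in the same order. The 2 genes that differed were P4hb, a protein disulfide isomerase gene of the endoplasmic reticulum (80 CS and 76 MM tags at 60 min, no peak at 12 min), and Dnajb6 at 12 min only. The 45 genes lay at 43 kept loci. Knockout peaks overlapped the regions of Hsp90ab1, Hspa1b, Hspd1 with Hspe1, Dnajb1, Dnajb2, Hspb2, Cacybp, Ptges3, Ppid, Cct2, Cct3, Cct6a and Cct7. Some regions were shared with a neighbouring gene outside the lists, as Dnaja1 with Aptx, St13 with Xpnpep3, Ahsa1 with Vipas39, and Hsp90b1 with Ttc41.

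Cytosolic Hsp70, Hsp110 and Hsp90 genes were among the highest in tag rank, with Hspa4 an exception. At 60 min Hsp90ab1 was first with both antibodies, with 1818 CS and 1429 MM tags against 1452 and 1076 at 12 min, where it was first too. Hspa1b, a heat-inducible Hsp70 gene, had 1402 and 1166 tags at 60 min against 802 and 621 at 12 min. Hspa1a and Hspa1l, which shared a region, had 857 and 789 against 448 and 313. Reads may have been placed uncertainly between Hspa1a and Hspa1b, which are nearly identical in sequence. Hsph1 (1225 and 926 against 986 and 666), Hspa8 (1156 and 832 against 1045 and 747), Hsp90aa1 (845 and 711 against 567 and 454) and Hspa4l (580 and 510 against 380 and 230) changed by few places. Hspa4 was lower in the list, with 207 and 132 tags at 60 min against 123 and 76 at 12 min. Of the 11 genes of this list 9 were bound at both times, at 8 loci, and the median move was -1.0 place with CS and 0.5 with MM.

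Among the J-domain genes, whose proteins deliver clients to Hsp70, Dnaja1 (980 and 795 tags at 60 min against 902 and 664 at 12 min) and Dnajb1 (1016 and 700 against 651 and 427) stood near the top at both times. Dnaja4 rose with both antibodies (505 and 446 against 283 and 184). A region shared by Dnajb4 and Fubp1 rose by 20 places with CS and by 570 with MM, with 210 and 191 tags at 60 min against 103 and 40 at 12 min. Another kept region, with its 60 min summit at chr3:152193860, lay by an annotated Dnajb4 transcript start at 152193845, and its move is not given here. Dnajb2 and Dnajb5 fell with both. Of the 22 J-domain genes listed, 6 were bound at both times, 1 at 12 min only and 15 at neither time. Of the 8 small heat shock protein genes, 3 were bound at both times and 5 at neither. Hspb1 rose by 209 and 237 places, with 533 and 403 tags at 60 min against 159 and 88 at 12 min. Hspb8 rose too (357 and 286 against 164 and 130) and Hspb2 fell (187 and 77 against 95 and 48).

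Cochaperones and the TRiC/CCT chaperonin, the ring complex that folds actin and tubulin, had more falls than rises, as all kept loci of the top starting quartile did (57.4% fell, and 41.4% of all kept loci). Of 24 Hsp90 and Hsp70 cochaperone genes, 12 were bound at both times, and Stip1, Bag3 and Cacybp rose with both antibodies. The other 9 (Ahsa1, Ahsa2, Fkbp4, Chordc1, St13, Ptges3, Ppid, Hspbp1 and Bag2) fell. Stip1 moved by 1 place with CS and 3 with MM, whereas Hspbp1 fell by 328 and 89.5. All 8 TRiC/CCT genes were bound at both times. Of these, Cct3 shared its region with Tsacc, Cct5 with Atpsckmt, Cct6a with Psph, Cct7 with Pradc1, and Tcp1 with Mrpl18. Tcp1 rose by 0.5 and 14.5 places, Cct8 was mixed, and the other 6 fell, with a median over the 8 of -136 places with CS and -97.5 with MM. Cct4 had 355 and 254 tags at 60 min against 475 and 307 at 12 min, and Cct2 160 and 104 against 145 and 116.

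In organelles, Hspd1 and Hspe1, the mitochondrial chaperonin and its partner, shared a region with 1275 CS and 1096 MM tags at 60 min against 938 and 779 at 12 min, and moved by 1 place or less. Hspa9, the mitochondrial Hsp70 gene, fell (178 and 107 against 171 and 117). In the endoplasmic reticulum Hsp90b1, Canx and Serpinh1 fell with both antibodies and Pdia3 was mixed. Bound at neither time were 10 of the 13 mitochondrial genes listed and 13 of the 18 genes listed for the endoplasmic reticulum. Over the 43 chaperone loci 25 fell with both antibodies (58.1%, 42.1% to 73.0%), 11 rose and 7 were mixed. Of these loci 34 were in the top quartile at 12 min, where 18 fell (52.9%, 35.1% to 70.2%) and 57.4% of all loci did. In the second quartile 7 of 8 fell (87.5%, 47.3% to 99.7%), against 56.6% of all loci there.

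**Figure D4:**
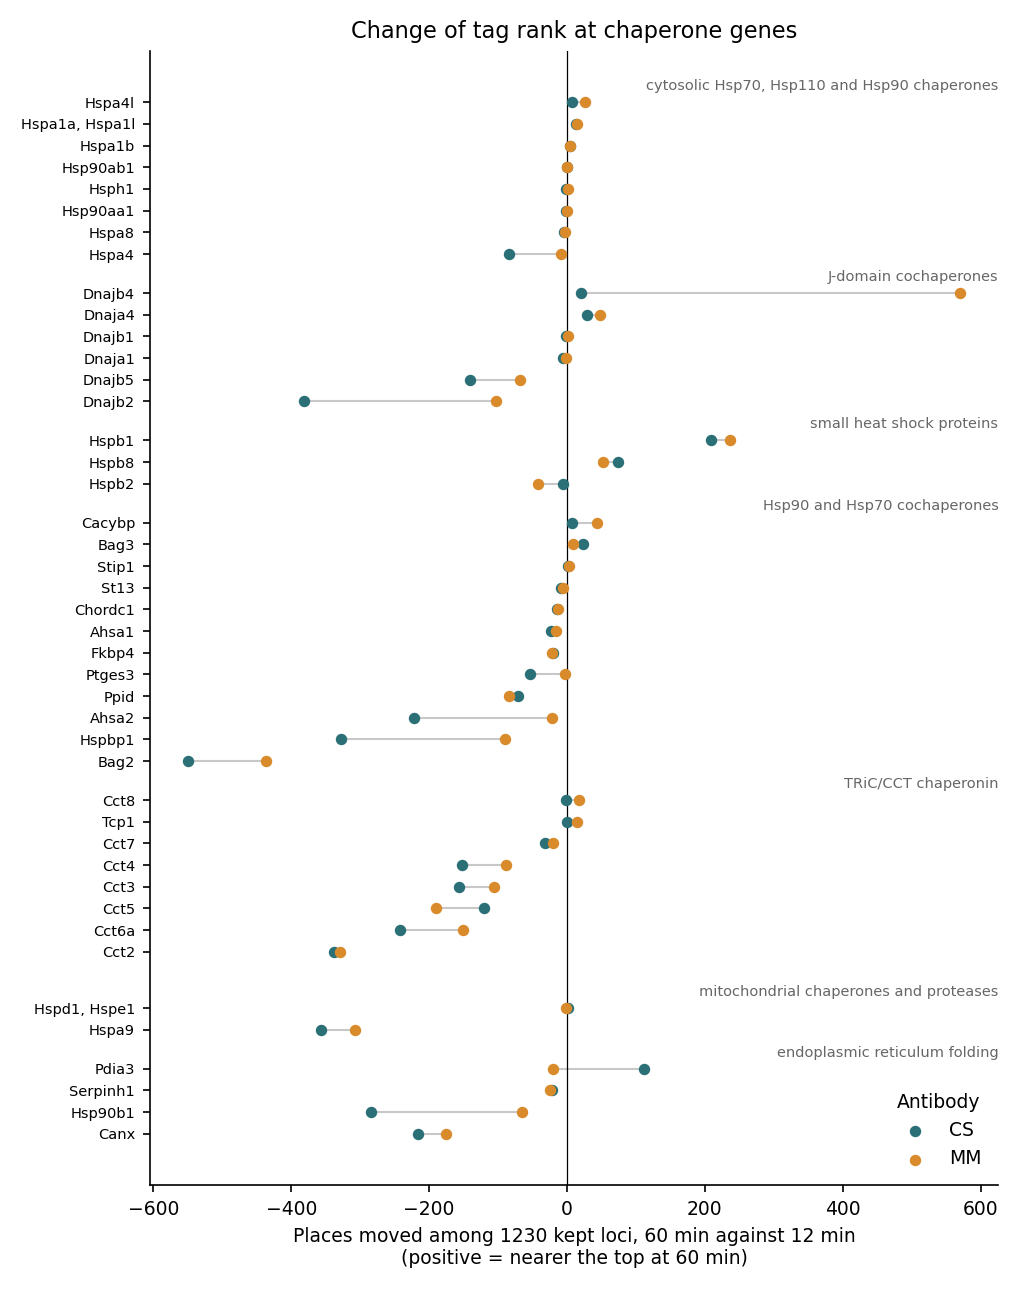
Places moved among the 1230 kept loci at 43 chaperone loci, 60 min against 12 min, by list; each locus has a CS and an MM point joined by a line, and positive values are nearer the top at 60 min. Hsp70, Hsp110 and Hsp90 genes gather at 0 apart from Hspa4, Hspb1 stands at 209 and 237, and 6 of the 8 TRiC/CCT genes are below 0 with both antibodies.

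Outside the chaperone lists, 182 genes of 9 lists held 7 bound at 60 min only, 13 at both times and 2 at 12 min only, against 1.27%, 1.32% and 0.208% of all protein-coding genes. Of the 26 protein clearance genes, 21 were bound at neither time. Zfand1, of this list, rose by 563.5 places with CS, with 245 CS and 182 MM tags at 60 min against 54 and 54 at 12 min. Ubqln1, a ubiquitin receptor gene, rose with both antibodies (718 and 568 against 479 and 295), Zfand2a fell, and Ubb, a polyubiquitin gene, was mixed with 1066 and 493 tags at 60 min against 484 and 341 at 12 min. Of the immediate early and AP-1 genes, Atf3, a stress-induced transcription factor, was bound at 60 min only (120 and 77 tags, no peak at 12 min). Jun and Jund were mixed and Ccn1 fell, and all 3 overlapped knockout peaks, as regions of several chaperone genes did.

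The actin and adhesion list had 4 of 31 genes bound, all at both times (1.32% of all genes): Flnc, Myl12a, Cald1 and Wdr1. Cald1 and Wdr1 fell with both antibodies, and Flnc and Myl12a, whose 60 min regions overlapped a knockout peak, were mixed. Bound at 60 min only (1.27% of all genes) were Col5a1 and Vim, of the 13 genes listed for the extracellular matrix, a list that also holds Vim, the gene of the intermediate filament protein vimentin, Mki67 of 20 cell cycle genes, and Rps18 and Rpl6 of 17 ribosomal protein genes, of which Rps13 and Rplp2 were bound at both times. The weakest of these was Mki67 with 52 CS and 30 MM tags, which overlapped a knockout peak, as Vim, Col5a1 and Rplp2 did. None of the 6 prefoldin genes, the 5 heat shock factor genes and the 23 marker genes of other cell types was bound at either time, where 2.58% of all protein-coding genes were bound at 60 min and 1.53% at 12 min. The identity of the fibroblasts cannot be read from a transcription factor's peaks.

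**Figure D5:**
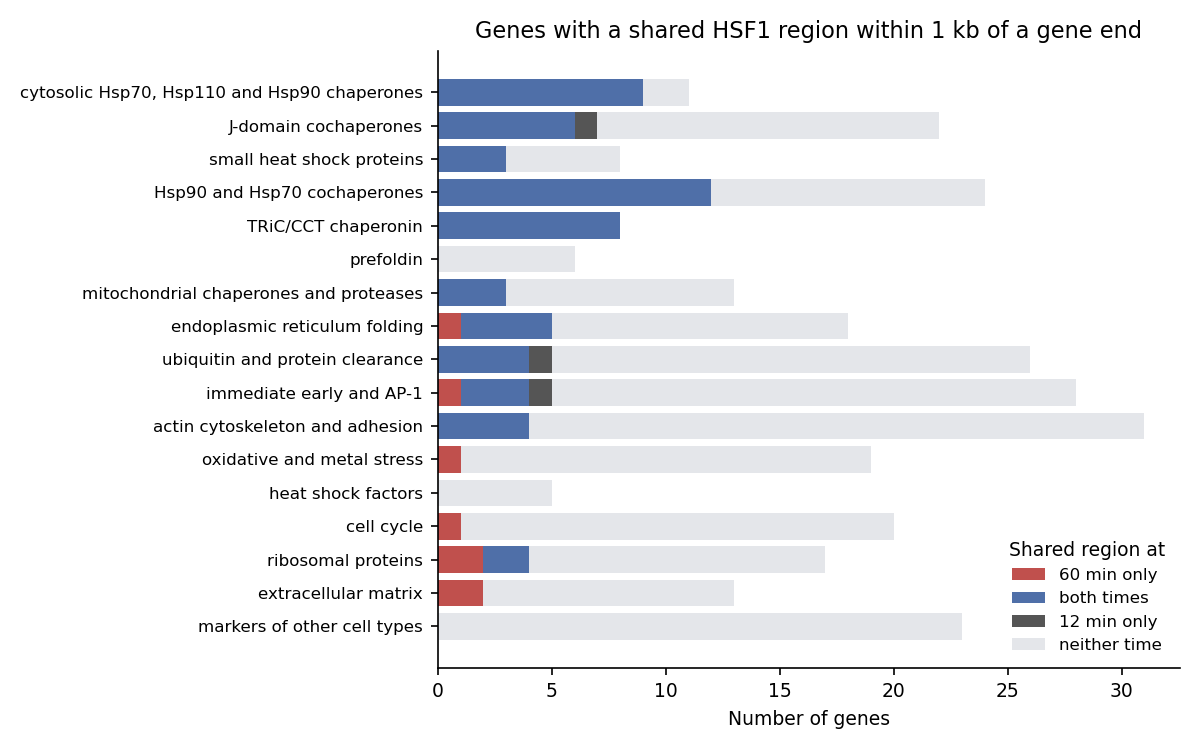
Number of genes of each list with a shared HSF1 region within 1 kb of a gene end at 60 min only, at both times, at 12 min only and at neither time. Of the 110 genes in the first 8 lists 45 were bound at both times, 1 (P4hb) at 60 min only and 1 (Dnajb6) at 12 min only.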

How the data were processed

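The authors called the peaks of each library with MACS 1.4.2, per the file headers, with IgG of that time as control, a p cutoff of 1e-04 and 1 tag kept per position. The genome was mm10 per the submitters' processing notes, and the sources used here name no aligner. Each deposited peak has a tag count, a score (-10 times log10 p), a fold enrichment (a ratio) and an FDR in percent, all the authors' own values. The deposited FDR was 5% or less for 50 of the 50 peaks with the most tags in 3 libraries and for 6 of 50 in the CS library of 12 min.

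Shared regions, kept loci and ranks were computed with Python 3.11.15, pandas 2.3.3 and scipy 1.17.1, and the matching steps were tested on simulated peaks. Tied ranks were averaged. Gene positions came from RefSeq's GRCm38.p6 gene table, which has no strand, so the distance to either gene end was used in place of the planned distance to a transcript start. The promoter table covered 17274 of 21631 protein-coding genes. Positions of regions used all 49554 annotated genes. Loci were called kept with at least 1 bp of overlap. Named genes are the 10 best-ranked regions of each class at the ends of protein-coding genes and 5 of each class away from such ends. The 5 largest rises and falls of each kind (those away from such ends being added to the rule) and bound members of 17 lists of 292 genes are named too. The genes of the printed promoters, and others singled out, were chosen after their values were seen. The regions and lists were chosen with earlier results of these data known. Alternatives were stricter overlap, p or FDR limits, single antibodies, lists of equal length, other gene distances and removal of loci with knockout peaks. The values of 1 listed gene are not reported here.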

Additional observations from a re-analysis of the deposited data

How the results depend on the processing

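Of 67 alternative values of 7 results, 31 stayed within the main interval or within 1.5 times the main count. The difference in width kept its sign, but the new share fell below 50% with lists of equal length. The share of 60 min regions that were new (64.4%) was 68.9% with 50% overlap, 66% at a p of 1e-10 or less, 70.3% at an FDR of 5% or less, 68.3% with CS alone, 68.4% with MM alone, 69.8% with either antibody and 66.3% without knockout peaks. With the 60 min lists cut to the length of the 12 min lists, keeping the peaks with the most tags, it was 36.7%, and the share of 12 min regions kept was 66.8%, since fewer 60 min peaks enter. The share kept (87.9%) was 76.1% with 50% overlap, 92.9% at the p limit, 91.6% at the FDR limit, 85.9% with CS, 75.9% with MM and 78.4% with either. Genes bound at 60 min only (274) numbered 176 at the p limit, 660 with MM, 713 with either, 111 with cut lists, 172 within 500 bp and 655 within 5 kb of a gene end. Genes bound at both times (285) numbered 170 at the p limit, 188 at the FDR limit and 514 within 5 kb. Genes bound at 12 min only (45) numbered 7 at the p limit, 20 at the FDR limit, 68 with CS, 139 with MM, 150 with either, 71 with cut lists and 74 within 5 kb. The median difference in width of kept regions (357.5 bp) was 312.5 bp with 50% overlap, 410 bp at the p limit, 118 bp with MM and 415 bp with cut lists. The share of loci that moved the same way with both antibodies (76.1%) was 78.6% at the FDR limit. At this limit strong CS peaks of 12 min drop out by construction, as weak 60 min peaks do with the cut lists. The cause of the differences between settings was not tested. No paired analysis was possible because there was 1 peak list per time and antibody. With no replicate lists the intervals cover counting error only, and a weak peak missing from a list is not shown to be absent.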
